A study of Homo sapiens with 8 samples.

Results

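The 2 libraries described here hold the baseline transcriptome of SUDHL-4 cells, an established human line of diffuse large B-cell lymphoma, and they are 2 of the 8 libraries of the series. They were chosen by their label alone, which names control cells given DMSO for 48 h. Their genotype is given as WT and their cell type as DLBCL cells. They are therefore vehicle-treated and not untouched cells, because DMSO, the solvent of elesclomol (ES), was in the medium. The other 3 groups, with 2 libraries each, were control cells in 5 nM ES, and cells overexpressing FDX1 (FDX1-OE) in DMSO or in ES. The series title asks how FDX1 overexpression acts on gene expression under elesclomol. The labels do not say whether the control cells carry an empty vector, nor whether the 2 libraries came from separate cultures. The spread between them may thus be technical.

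Germinal-centre B cells are the B cells that divide in lymphoid follicles while they mutate and select their antibody genes. BCL6 is the transcriptional repressor that holds them in that state, and PRDM1 and IRF4 drive the exit to plasma cells. Germinal-centre type lymphomas keep the BCL6 programme, whereas activated B-cell type lymphomas express IRF4 and other genes downstream of chronic NF-kB signalling. Elesclomol carries copper into the mitochondria. Copper then binds proteins that bear a lipoyl group, and FDX1, a mitochondrial ferredoxin, acts upstream of that group. The genes that take up, carry and store copper and those that make the lipoyl group are therefore described beside the lineage genes.

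Values are given for library 1 and library 2 in that order. The unit is FPKM, fragments divided by gene length and by library depth, so that levels of different genes can be set side by side. Whole reads recovered from the values came to library totals of 34735595 and 35883528. For a gene 1 kilobase long, 3 reads amount to 0.0864 and 0.0836 FPKM, and levels under that were not told from 0. A gene is called expressed at 1 FPKM or more in both libraries, and 9207 of the 15597 listed genes met that, or 59.0%. The counts of expressed genes in each list below are to be set beside that share. The libraries agreed closely on the level of single genes. The SD of the log2 ratio over expressed genes was 0.154, and for 95.7% of them the higher value was within 25% of the lower. Counting noise alone would give a median SD of 0.0494 per gene, and the mean chi-square per gene between the libraries was 8.81, where counting noise alone gives 1. They thus differed by more than counting noise and were kept as 2 libraries.

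The transcriptome was dominated by few genes. The 100 most abundant genes held 33.24% and 32.79% of the summed FPKM, and 358 and 374 genes held 50% of it. The median listed gene stood at 3.08 and 3.09 FPKM. At the upper end 633 genes reached 100 FPKM in both libraries and 45 reached 1000 FPKM. Genes that were not expressed by the rule above added 0.229% and 0.241% of the summed FPKM.

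**Figure D1:**
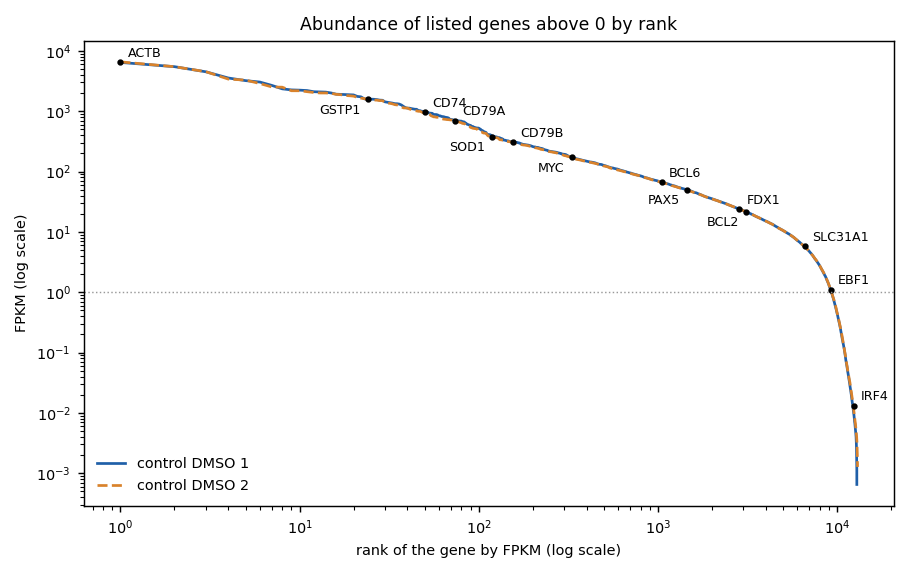
FPKM of every listed gene above 0 (y axis, log scale) against its rank in the library (x axis, log scale), with a line for each control DMSO library; black points mark the mean FPKM of named genes and the dotted line is 1 FPKM. The lines lie on each other from ACTB at rank 1 down to EBF1 at rank 9209, below which levels drop steeply.

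ACTB, which encodes beta-actin, was the most abundant transcript at 6449 and 6589 FPKM. GAPDH, the glycolytic dehydrogenase, followed at 5487 and 5482 FPKM. The next ranks went to RPS2 at 4509.5 and 4524 FPKM and RPL41 at 3560.3 and 3413 FPKM, which encode proteins of the small and the large ribosomal subunit. TUBA1B, an alpha-tubulin of the spindle and cytoskeleton, reached 3050.5 and 3283 FPKM. Others among the first 20 were RPS18, EEF1A1, EEF2, RPL8, RPL13A, HSPA8, RPL3, PPIA, RPLP0, ACTG1, RPS15, RPLP2, PTMA and RPL7A, of which RPL7A was lowest at 1897 and 1781 FPKM. Thus translation and the cytoskeleton took most of the first 20 places. Of 83 listed genes for cytosolic ribosomal proteins, 81 were expressed and 49 were among the 100 most abundant, and together they held 19.3% and 18.6% of the summed FPKM. GSTP1, a glutathione S-transferase, ranked 24 at 1595 and 1549.5 FPKM. CD74, the MHC class II invariant chain, was the highest B-lineage gene at rank 50.

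The start sites of the most abundant genes are shown because many share a sequence feature that the choice by abundance did not use. Transcripts of ribosomal proteins and elongation factors typically begin with a C and an unbroken pyrimidine tract, the 5' terminal oligopyrimidine (TOP) motif, through which growth signals regulate their translation. Each line below gives 15 bases before and 15 after the transcript start in RefSeq (build GRCh38.p14), with the tract in capitals where the first base is a C followed by at least 4 pyrimidines.
RPL41 (chr12:56116618-56116647, plus strand): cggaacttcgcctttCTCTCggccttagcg
RPS18 (chr6:33272060-33272089, plus strand): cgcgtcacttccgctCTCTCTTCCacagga
EEF1A1 (chr6:73521018-73521047, minus strand): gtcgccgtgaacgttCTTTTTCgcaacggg
EEF2 (chr19:3985449-3985478, minus strand): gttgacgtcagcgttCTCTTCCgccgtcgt
RPLP2 (chr11:809952-809981, plus strand): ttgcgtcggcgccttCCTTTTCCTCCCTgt
RPL7A (chr9:133348203-133348232, plus strand): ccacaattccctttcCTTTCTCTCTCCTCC
PTMA (chr2:231708510-231708539, plus strand): tggcgccgcgtgagtCCCCCactggctgct
RPL3 (chr22:39319609-39319638, minus strand): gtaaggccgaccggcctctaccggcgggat
RPS15 (chr19:1438381-1438410, plus strand): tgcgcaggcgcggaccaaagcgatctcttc
GAPDH (chr12:6535249-6535278, plus strand): agcgggtgcatccctgtccggatgctgcgc
TUBA1B (chr12:49131381-49131410, minus strand): cgccggccccgccctagtgcgttacttacc
HSPA8 (chr11:123062122-123062151, minus strand): cgggcggaaaccggtctcattgaactcgcc
The first 6 genes act in translation and began with such a tract, as did PTMA, which encodes the nuclear protein prothymosin alpha. GAPDH, TUBA1B and HSPA8 did not begin with it, and neither did the ribosomal protein genes RPL3 and RPS15. Among matched genes not printed, RPL13A and RPLP0 had the tract, and PPIA and ACTG1 did not. The tract was thus in most but not all of the matched translation genes. Of the 20 most abundant genes 16 matched the table, and 9 had the tract, all of them translation genes except PTMA. RefSeq start windows matched 83 of the 100 most abundant genes, and 42 of these, or 50.6%, had the tract at a listed start. Of the expressed genes, 7626 matched and 616 had it, or 8.08%. Over all 35116 start windows of the table the share was 4.07%. These shares describe annotated starts, not starts measured in these cells. ACTB, RPS2 and RPL8 had no match.

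The identity of the line was that of a B cell, and the marker genes fitted the label. Of 24 genes that mark B cells at several stages, 22 were expressed, with a median of 42.8 and 45.3 FPKM against 3.08 and 3.09 FPKM over all listed genes. CD79A and CD79B are the signalling chains of the B-cell receptor. CD79A stood at 690.0 and 698 FPKM, which was rank 74 of all listed genes, from 23609 and 24665 reads. CD79B stood at 311 and 302 FPKM, at rank 155. CD74 reached 930.2 and 999 FPKM, and VPREB3, a chaperone-like partner of immature receptor chains, 222 and 203 FPKM. The therapeutic surface targets followed, with CD22 at 186 and 189 FPKM and MS4A1, which encodes CD20, at 179 and 174 FPKM.

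The transcription factors that set B-cell identity were unevenly abundant. PAX5, which commits progenitors to the B lineage, was expressed at 45.5 and 53.8 FPKM and held 92.2% and 92.1% of the summed FPKM of the listed PAX genes. POU2AF1, the coactivator of octamer factors, was higher at 164 and 168 FPKM, and its partner POU2F2 stood at 21.4 and 22.5 FPKM. TCF3, the E protein that activates B-cell genes, reached 216 and 235 FPKM. EBF1, a pioneer factor that acts with PAX5, was barely above the threshold at 1.05 and 1.14 FPKM, which ranked 9209. It nonetheless had 1811 and 2031 reads and ranked 4255 by reads. The length that fits its values was 49662 bases, so its low FPKM depends on that length and does not mean few reads. The 2 members that were not expressed were CR2 (CD21) at 0.979 and 1.18 FPKM and FCER2 (CD23) at 0.0173 and 0.0334 FPKM, both surface proteins of mature resting or follicular B cells.

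**Figure D2:**
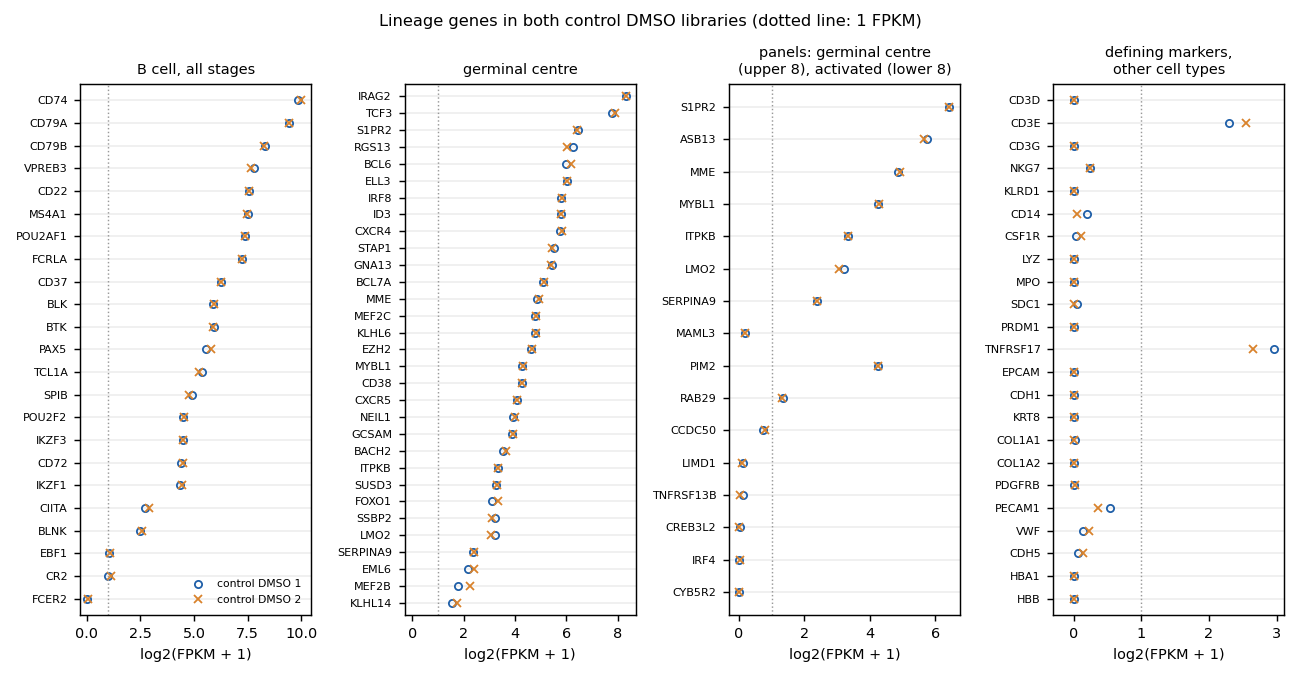
Level of the genes shown as log2(FPKM + 1) (x axis) in control DMSO 1 (circles) and control DMSO 2 (crosses), for B-cell genes, germinal-centre genes, the germinal-centre and activated panels, and defining markers of other cell types; the dotted line is 1 FPKM. Every germinal-centre gene shown lies to the right of the line, as do 7 of 8 germinal-centre panel genes and 2 of 8 activated panel genes, while among the markers of other cell types CD3E and TNFRSF17 alone do.

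All 32 listed genes of the germinal-centre list were expressed, with a median of 21.1 and 21.6 FPKM. The list was chosen with earlier results of these data known, so that count is no independent support for the label. ASB13 and MAML3 of the panel described below are not in it, and MAML3 was not expressed. The highest member of the list was IRAG2, an inositol trisphosphate receptor-associated protein, at 320.3 and 317 FPKM. S1PR2, the receptor that confines B cells to the follicle, stood at 85.7 and 84.4 FPKM, and RGS13, a regulator of chemokine receptor signalling, at 74.95 and 64.4 FPKM. BCL6 was expressed at 61.8 and 71.3 FPKM, rank 1048, and was higher in library 2. GNA13, the G protein downstream of S1PR2, was at 42.9 and 41.5 FPKM and EZH2, the H3K27 methyltransferase, at 23.9 and 24.5 FPKM. The lowest members were MEF2B, an activator of BCL6, at 2.404 and 3.75 FPKM and KLHL14, an adaptor of an E3 ligase, at 1.92 and 2.38 FPKM.

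Markers of the proliferative dark zone and the selecting light zone of the germinal centre were present together. Of 18 genes in that list, 16 were expressed. CXCR4, which guides cells to the dark zone, was at 52.6 and 56.03 FPKM, and CD83 and CD86, which mark light-zone cells, were at 15.1 and 14.5 and at 12.2 and 9.41 FPKM. The members below threshold in a library were BATF at 0.694 and 1.22 FPKM and CCL22 at 0.148 and 0.2197 FPKM. MYC, the growth regulator that selected germinal-centre cells switch on, was the highest at 163 and 182 FPKM.

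For the cell of origin of this lymphoma, a panel of 8 genes of the germinal-centre type was set beside a panel of 8 of the activated type. The panels as used here do not reproduce a clinical assay, so their difference is not an assay score. Of the germinal-centre panel 7 genes were expressed, led by S1PR2 at 85.7 and 84.4 FPKM, ASB13 at 53.4 and 49.7 FPKM, MME (CD10) at 28.01 and 29.6 FPKM and MYBL1 at 18.2 and 18.6 FPKM. MAML3 was the exception at 0.1304 and 0.134 FPKM. Of the activated panel 2 were expressed, PIM2, a survival kinase, at 18.2 and 17.9 FPKM and RAB29 at 1.57 and 1.505 FPKM. IRF4 had no read in library 1 and 5 reads in library 2, CYB5R2 was at 0 in both, and TNFRSF13B stood at 0.0828 and 0.02003 FPKM. The mean of log2(FPKM + 1) over the germinal-centre panel minus that over the activated panel was 2.97 in both libraries, from panel means of 3.81 and 0.835 in library 1 and 3.79 and 0.816 in library 2. The 5 housekeeping genes listed beside the panels were all expressed, from 2.36 and 2.59 FPKM for ISY1 to 29.6 and 30.2 FPKM for R3HDM1.

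A longer list of genes tied to the activated type had 12 of 23 members expressed, beside 59.0% of all listed genes. These were led by PTPN1, a tyrosine phosphatase, at 23.6 and 23.1 FPKM and BCL2, the survival protein, at 20.3 and 22.98 FPKM. IGF2BP3, an mRNA-binding protein, was at 16.2 and 15.8 FPKM. BTLA and CYB5R2 were at 0, CCND2 at 0.111 and 0.0429 FPKM and CD44 at 0.00408 and 0 FPKM. FOXP1, often abundant in activated-type tumours, was low at 1.99 and 2.18 FPKM. The list is not exclusive to that type, since BCL2, BLNK and STAT3 serve most B cells.

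Genes of antibody-secreting cells were split. The master regulator PRDM1 was at 0.00684 and 0 FPKM, from 2 reads in library 1, and SDC1 (CD138) was at 0.0311 and 0 FPKM. Other genes of the same list were among the more abundant transcripts. JCHAIN, which joins polymeric antibodies, reached 559 and 517 FPKM at rank 94, and MZB1, a chaperone of antibody assembly, 219 and 208 FPKM. FKBP11 was at 55.6 and 57.2 FPKM, and XBP1, the transcription factor of the secretory expansion, at 29.99 and 26.2 FPKM. TNFRSF17 (BCMA) was the expressed marker among 3 defining ones, at 6.82 and 5.29 FPKM. In all 9 of 15 members were expressed, a share near the 59.0% of all listed genes. The summed level of the 3 defining markers was 6.86 and 5.29 FPKM.

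Naive and memory B-cell genes were mixed, with 7 of 15 expressed, beside 59.0% of all listed genes. CD27, a memory and germinal-centre receptor, was at 64.9 and 67.4 FPKM and TCL1A, a co-activator of AKT, at 40.2 and 36.8 FPKM. BTG1 stood at 17.9 and 20.4 FPKM and IL4R at 12.1 and 13.1 FPKM. The recirculation genes were low, with CCR7 at 0.2998 and 0.135 FPKM, KLF2 at 0.133 and 0.109 FPKM and S1PR1 at 0.0301 and 0.0388 FPKM. Of 9 listed genes of immature B cells 3 were expressed, MYB at 12.97 and 12.8 FPKM, the surrogate light chain VPREB1 at 8.72 and 7.18 FPKM and SOX4 at 6.49 and 7.03 FPKM. The recombinase gene RAG1 was at 0.0572 and 0.0672 FPKM and RAG2 at 0.311 and 0.321 FPKM.

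The defining markers of other lineages were mostly at or near 0. In bulk RNA, fewer cells of a type and less RNA per cell cannot be told apart. EPCAM, CDH1 and KRT8 of epithelium and HBA1 and HBB of erythroid cells had no read in either library. The summed level of the defining markers was 0.0147 and 0.0144 FPKM for stromal cells, 0.179 and 0.111 FPKM for myeloid cells with LYZ and MPO at 0, 0.187 and 0.179 FPKM for NK cells, and 0.603 and 0.547 FPKM for endothelium. For T cells it was 3.91 and 4.85 FPKM, all of it CD3E, while CD3D and CD3G were at 0. CD2 and GNLY were not among the listed genes.

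Some genes usually assigned to other lineages were nonetheless expressed. Of 16 listed T and NK genes 4 were, namely LCK at 68.4 and 70.8 FPKM, CD247, the CD3 zeta chain, at 20.2 and 22.3 FPKM, CD3E and PRF1, which encodes perforin, at 3.77 and 3.41 FPKM. The highest of the other members was NKG7 at 0.185 and 0.179 FPKM, and CD5, CD7, NCAM1 and TBX21 were at 0. Of 17 listed myeloid genes 4 were expressed, with SPI1 (PU.1), which B cells also use, at 53.5 and 57.8 FPKM. FCER1G stood at 2.93 and 2.55 FPKM, CEBPA at 1.65 and 1.74 FPKM and CD68 at 1.15 and 1.27 FPKM. AIF1, CSF3R, FCGR1A, ITGAX and MRC1 were at 0 beside LYZ and MPO. In the epithelial and stromal list 1 of 21 genes was expressed, the proteoglycan DCN at 13.7 and 12.2 FPKM, and VIM was low at 0.868 and 0.801 FPKM. COL3A1, KRT18, KRT19 and KRT5 had no read in either library. EPOR at 5.28 and 4.77 FPKM was the expressed member of 6 erythroid and megakaryocyte genes. TUBB3, a beta-tubulin best known from neurons, was at 185 and 185 FPKM, while SNAP25, GFAP, RBFOX3, DES and MYH7 had no read. The reads of tubulin genes can be split among near-identical copies, so that value is uncertain.

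The B-cell receptor pathway was expressed from the receptor to its downstream adaptors, with 26 of 29 listed genes. Below CD79A and CD79B, the inhibitory receptor CD22 and the tetraspanin CD81 were the most abundant, with CD81 at 146 and 139 FPKM. Among the kinases SYK stood at 69.97 and 71.4 FPKM, BTK at 59.4 and 57.7 FPKM, BLK at 58.6 and 59.6 FPKM and LYN at 10.9 and 10.8 FPKM. The adaptor BLNK was at 4.56 and 4.93 FPKM and the phospholipase PLCG2 at 42.9 and 46.5 FPKM. MALT1 and BCL10, which link the receptor to NF-kB, were at 5.63 and 5.71 and at 3.76 and 3.46 FPKM. The inhibitory phosphatase PTPN6 (SHP-1) was at 6.75 and 7.35 FPKM. CR2, FCRL3 at 0.568 and 0.649 FPKM and FCRL5 at 0.308 and 0.1801 FPKM were not expressed, and PRKCB was not among the listed genes.

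Every listed gene of MHC class II presentation was expressed, 17 of 17, with a median of 65.3 and 63.2 FPKM. HLA-DRA led the chains at 584 and 572 FPKM, and CIITA, the coactivator that switches the set on, was at 5.67 and 6.48 FPKM. For class I, 15 of 17 genes were expressed, and CALR, a chaperone of the heavy chains, was highest at 604 and 603 FPKM. B2M was at 509 and 476 FPKM, HLA-C at 16.6 and 14.5 FPKM and HLA-B at 9.09 and 8.84 FPKM, so the light chain exceeded both of these heavy chains. HLA-F and HLA-G had at most 1 read in a library. Values of HLA genes are uncertain, because their alleles differ from the reference and their reads can be split among paralogues.

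Among targets of antibodies and checkpoint molecules 15 of 27 were expressed, a share near the 59.0% of all listed genes. After CD79B, CD52 was the most abundant at 275 and 264 FPKM, ahead of CD22 and MS4A1. CD37 was at 75.3 and 75.4 FPKM, CD38 at 18.1 and 18.4 FPKM and CD40 at 19.1 and 19.3 FPKM. Ligands of T-cell receptors were uneven, with CD86 at 12.2 and 9.41 FPKM against CD80 at 0.705 and 0.509 FPKM. CD274 (PD-L1) was at 0.00768 and 0.00743 FPKM, TNFRSF14 (HVEM) at 0.117 and 0.0188 FPKM, and CD58, the ligand of CD2, at 0 in both libraries. CD47, the do-not-eat-me signal, was low at 2.37 and 2.09 FPKM.

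Of 34 genes that are recurrently altered in this lymphoma, 28 were expressed. B2M and CD79B were the highest, followed by MYC at 163 and 182 FPKM and the helicase gene DDX3X at 113 and 109.9 FPKM. CREBBP was at 14.8 and 18.6 FPKM, EP300 at 23 and 27.4 FPKM and KMT2D at 14.7 and 19.01 FPKM. TET2 and CD58 had no read in either library, and TNFAIP3 (A20), the brake on NF-kB, was at 0.528 and 0.783 FPKM. CDKN2A was expressed at 28.7 and 28.8 FPKM beside its neighbour CDKN2B at 0.3902 and 0.378 FPKM. These are transcript levels and say nothing of mutations.

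The cells carried high levels of cell-cycle transcripts. All 31 listed proliferation genes were expressed, and the median of their percentiles among all listed genes was 96.2. After TUBA1B the highest were HMGB2 at 325 and 306 FPKM, MCM7, a subunit of the replicative helicase, at 310.1 and 315 FPKM and PCNA, the sliding clamp, at 295 and 279 FPKM. MKI67 was at 60.4 and 69.4 FPKM. CCND3 was the D cyclin in use at 33.5 and 35.5 FPKM, with CCND2 at 0.111 and 0.0429 FPKM, so that it held 99.6% and 99.9% of the summed level of its family. CDK4 at 153 and 139.7 FPKM exceeded CDK6 at 23.4 and 24.02 FPKM, although it held 50.4% and 47.4% of the reads of the pair. MYC held 99.5% and 99.6% of the level of the listed MYC genes.

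An octamer motif, ATTTGCAT, is bound by POU2F1 and POU2F2 and is a classic element of B-cell promoters, and it is shown for 2 lineage genes that held it. Each line gives 110 bases that end 31 bases before the RefSeq start (GRCh38.p14), with matches on either strand in capitals.
VPREB3 (chr22:23754456-23754565, minus strand): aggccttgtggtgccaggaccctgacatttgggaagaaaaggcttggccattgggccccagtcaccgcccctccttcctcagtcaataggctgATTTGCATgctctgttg
SERPINA9 (chr14:94476228-94476337, minus strand): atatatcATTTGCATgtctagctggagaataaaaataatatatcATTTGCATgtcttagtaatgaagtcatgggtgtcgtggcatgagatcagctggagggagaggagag
VPREB3 held 1 match and was at 222 and 203 FPKM, and SERPINA9, a germinal-centre serpin, held 2 and was at 4.21 and 4.22 FPKM. Of the germinal-centre list 27 of 32 genes matched the promoter table and 3 held the octamer within 250 bases before and 50 bases after a start, SERPINA9, MEF2B and MEF2C, or 11.1%. Of the 7626 matched expressed genes 138 held it, or 1.81%, and over all 35116 single windows the share was 1.77%. Of 1527 matched genes at 0 in both libraries 47 held it, or 3.08%, and of all matched listed genes 2.22% did. Silent genes thus held it at least as often as expressed ones. For the B-cell list the share is void, because 16 of 24 genes matched.

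Copper genes were led by the proteins that use and carry copper inside the cell, and the transporters at the membrane were low. Of 51 listed copper genes 31 were expressed, 11 were at 0 in both libraries and 9 lay between, and the median was 2.79 and 2.80 FPKM. Over all listed genes 59.0% were expressed and 13.3% were at 0 in both libraries, with a median of 3.08 and 3.09 FPKM. The share of copper genes expressed was thus near that of all listed genes. SOD1, the copper-zinc superoxide dismutase, was highest at 387 and 373 FPKM and rank 119. CCS, the chaperone that loads it, was at 18.3 and 18.1 FPKM. ATOX1, which carries copper to the export pumps, was at 132 and 138 FPKM. The pumps themselves were not expressed by the rule used here, with ATP7A at 0.715 and 0.755 FPKM and ATP7B at 0.0625 and 0.0471 FPKM. The high-affinity importer SLC31A1 (CTR1) was at 6.1 and 5.38 FPKM, rank 6578, and its relative SLC31A2 at 0.605 and 0.921 FPKM. SLC11A2 (DMT1), a divalent metal transporter, was at 2.62 and 2.49 FPKM. SLC25A3, which brings copper and phosphate into the mitochondrial matrix, was at 96.05 and 93.6 FPKM.

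The chaperones that build cytochrome c oxidase were all expressed. COX17 was at 38.3 and 35.5 FPKM, COA4 at 33.5 and 33.1 FPKM, PET100 at 31.2 and 33.3 FPKM and CHCHD7 at 31.01 and 29.2 FPKM. SCO2 exceeded SCO1, at 20.8 and 18.5 against 7.18 and 7.62 FPKM. By reads the order of these paralogues was the opposite, since SCO2 held 29.1% of the reads of the pair in library 1 and 74.3% of its FPKM. COA6 was at 20.9 and 17.5 FPKM, COA5 at 7.43 and 5.92 FPKM, COX19 at 5.57 and 5.07 FPKM, COX11 at 4.62 and 4.96 FPKM, CMC2 at 2.58 and 2.299 FPKM and CMC1 at 2.07 and 2.17 FPKM. Thus every listed chaperone of that enzyme was expressed, with COX17 the highest and CMC1 the lowest.

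**Figure D3:**
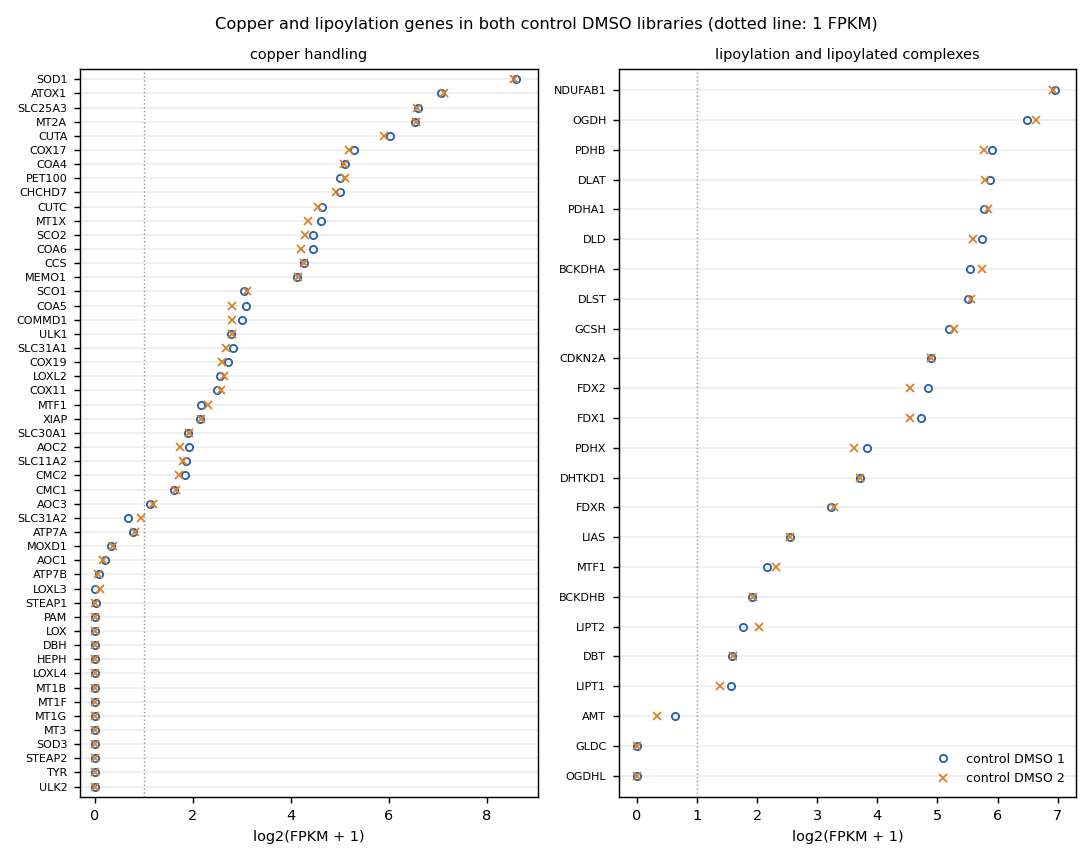
Level of copper-handling genes (left) and lipoylation genes (right) as log2(FPKM + 1) (x axis) in control DMSO 1 (circles) and control DMSO 2 (crosses), in order of the mean FPKM; the dotted line is 1 FPKM. SOD1, ATOX1, SLC25A3 and MT2A head the copper genes and 11 lie at 0 in both libraries, while all but 3 of the lipoylation genes shown (AMT, GLDC and OGDHL) lie to the right of the line.

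Genes that store, sense or otherwise handle copper varied. The sensor MTF1 was at 3.49 and 3.98 FPKM and the zinc exporter SLC30A1, an MTF1 target, at 2.72 and 2.8 FPKM. CUTA was at 63.99 and 58.4 FPKM, CUTC at 23.8 and 22.5 FPKM, COMMD1 at 6.97 and 5.94 FPKM, XIAP at 3.39 and 3.48 FPKM and MEMO1 at 16.4 and 16.6 FPKM. The kinase ULK1 was at 5.88 and 5.91 FPKM and ULK2 at 0. Among copper enzymes LOXL2, a lysyl oxidase, was expressed at 4.89 and 5.22 FPKM, AOC2 at 2.79 and 2.32 FPKM and AOC3 at 1.17 and 1.26 FPKM. AOC1 at 0.159 and 0.125 FPKM, MOXD1 at 0.256 and 0.285 FPKM, LOXL3 at 0.007405 and 0.0788 FPKM, LOX at 0 and 0.00526 FPKM and PAM at 0 and 0.00582 FPKM were below the threshold. DBH, TYR, LOXL4, SOD3, HEPH and STEAP2 were at 0, and STEAP1 stood at 0.0236 and 0 FPKM. The secreted copper enzymes were thus mostly below the threshold.

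The metallothioneins, small proteins that bind copper and zinc through cysteines, were used selectively. MT2A was at 91.6 and 92.3 FPKM and MT1X at 23.5 and 19.4 FPKM, so that MT2A held 79.6% and 82.6% of the summed level of 6 listed members. MT1B, MT1F, MT1G and MT3 had no read in either library. Their coding sequences are near-identical, and reads that fit several copies may have been left out or assigned to 1 of them. MTF1 induces these genes through metal response elements, whose core was searched as TGCACNC or TGCGCNC on both strands. The 200 bases before the RefSeq start (GRCh38.p14) are printed for 3 members, with every match in capitals.
MT2A (chr16:56608384-56608583, plus strand): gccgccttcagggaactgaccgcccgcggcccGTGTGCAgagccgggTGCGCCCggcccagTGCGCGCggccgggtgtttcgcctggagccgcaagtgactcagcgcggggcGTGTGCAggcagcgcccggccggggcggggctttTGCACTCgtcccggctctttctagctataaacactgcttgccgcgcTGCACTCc
MT1X (chr16:56682270-56682469, plus strand): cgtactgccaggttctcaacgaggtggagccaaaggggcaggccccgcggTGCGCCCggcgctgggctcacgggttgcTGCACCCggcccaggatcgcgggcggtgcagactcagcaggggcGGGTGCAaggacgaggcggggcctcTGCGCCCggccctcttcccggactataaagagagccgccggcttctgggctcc
MT1B (chr16:56651686-56651885, plus strand): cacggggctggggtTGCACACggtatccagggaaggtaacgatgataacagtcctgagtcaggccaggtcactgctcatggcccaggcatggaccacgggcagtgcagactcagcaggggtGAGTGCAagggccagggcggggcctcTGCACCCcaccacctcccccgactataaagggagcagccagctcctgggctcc
MT2A held 6 separate matches, MT1X 4 and MT1B 3, so the silent MT1B also held the core close to its start. The core is common: 46.4% of the matched expressed genes held it at least once in the longer window used for the octamer, as did 29.6% of all 35116 single windows. MT1F, MT1G and MT3 had no match in that table.

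Nearly all genes of protein lipoylation and of the lipoylated complexes were expressed, 22 of 25, with a median of 13.2 and 12.1 FPKM. NDUFAB1, the mitochondrial acyl carrier protein on which the lipoyl precursor is made, was highest at 124 and 120.2 FPKM. The enzymes that make and transfer the group were low beside it, with LIPT2 at 2.39 and 3.08 FPKM, LIAS, the lipoyl synthase, at 4.87 and 4.81 FPKM and LIPT1 at 1.97 and 1.602 FPKM. Transcripts for the proteins that carry the lipoyl group were higher than these, except DBT. DLAT of pyruvate dehydrogenase was at 57.8 and 54.1 FPKM, DLST of 2-oxoglutarate dehydrogenase at 44.8 and 45.9 FPKM, GCSH of the glycine cleavage system at 35.4 and 37.5 FPKM, PDHX at 13.2 and 11.3 FPKM and DBT of the branched-chain complex at 1.995 and 2.02 FPKM.

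FDX1 was expressed at 25.6 and 22.2 FPKM, rank 2850, from 2794 and 2504 reads. Its paralogue FDX2, which acts in iron-sulfur cluster assembly, was at 27.7 and 22.3 FPKM. FDX2 was the higher in each library, but their ranges over the libraries overlapped, so their order by FPKM was not resolved. By reads FDX1 was the higher, since FDX2 had 975 and 809 reads. The fitted lengths were 3144 bases for FDX1 and 1012 for FDX2, so the scale matters here. The reductase FDXR, which hands electrons to both, was lower at 8.38 and 8.69 FPKM. The remaining subunits were expressed as sets, with PDHA1 at 53.9 and 56.6 FPKM, PDHB at 59.2 and 53.9 FPKM and the shared DLD at 52.2 and 47.2 FPKM. OGDH was at 89.3 and 98.8 FPKM, DHTKD1 at 12.1 and 12.1 FPKM, BCKDHA at 45.6 and 52.5 FPKM and BCKDHB at 2.75 and 2.799 FPKM. In the glycine cleavage system GLDC was at 0 and AMT at 0.548 and 0.265 FPKM, so GCSH was the one component expressed beside DLD. OGDHL had no read. CDKN2A, which was named with FDX1 in genetic screens of copper toxicity, was at 28.7 and 28.8 FPKM.

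Iron and iron-sulfur genes were expressed in 31 of 34 cases. The ferritin chains were the most abundant, FTL at 839 and 792 FPKM and FTH1 at 364 and 362 FPKM. HSPA9, the mitochondrial chaperone of cluster transfer, was at 155 and 148 FPKM and CIAO2B at 132 and 127 FPKM. The transferrin receptor TFRC was at 36.5 and 35.6 FPKM, and TFR2, known chiefly from liver, at 21.3 and 24.9 FPKM. The iron exporter SLC40A1 and the inducible haem oxygenase HMOX1 had no read, while HMOX2 was at 37 and 36.9 FPKM. NUBPL, which serves complex I assembly, was the member below the threshold with reads, at 0.433 and 0.539 FPKM.

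The core respiratory chain genes of the nucleus were expressed. All 37 genes of the complex I list were, at a median of 77.5 and 71.8 FPKM, led by NDUFA13 at 301 and 287 FPKM and NDUFA12 at 305 and 275 FPKM. All 36 genes of the list for complexes III, IV and V were, at a median of 144 and 144 FPKM, and ATP5F1B, the catalytic beta subunit of ATP synthase, was the highest at 1080.1 and 1021 FPKM. COX6A1 followed at 533 and 527 FPKM. The 13 genes of the mitochondrial genome were not among the listed genes. UCP2, an uncoupling-type carrier of blood cells, was at 198 and 191 FPKM and held 99.8% of the level of its family in both libraries.

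In glycolysis 20 of 27 listed genes were expressed. After GAPDH came LDHB at 816 and 739 FPKM, PKM at 718 and 744 FPKM and TPI1 at 726 and 699 FPKM. LDHB exceeded LDHA, at 642 and 622 FPKM, in both libraries, although LDHA had more reads. Hexokinase was shared between HK2 at 35.4 and 35.6 FPKM and HK1 at 31.4 and 30.9 FPKM. The glucose transporter SLC2A1 at 36.7 and 35.9 FPKM had a close neighbour in SLC2A5, the fructose transporter, at 35.2 and 33.96 FPKM. Among transporters of lactate and related acids, SLC16A1 (MCT1) led at 40.9 and 39.9 FPKM. SLC16A7 was at 2.51 and 2.36 FPKM, and SLC16A3 (MCT4) and SLC16A8 were at 0. By reads SLC16A1 held 83.5% and 84.0% of that family, and transport itself was not measured. ALDOA stood at 2.21 and 1.64 FPKM, far below its neighbours in the pathway, and ALDOC at 6.69 and 7.76 FPKM. RefSeq has a protein-coding gene, LOC112694756, that overlaps ALDOA and stood at 0.521 and 0.3599 FPKM. Reads that fit both may not have been counted for either, which was not tested, so the level of ALDOA is uncertain.

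The pentose phosphate and nucleotide pathways were complete, 24 of 24, at a median of 49.5 and 49.4 FPKM. TKT, the transketolase, was highest at 305 and 328 FPKM, and IMPDH2, which commits purines to guanine nucleotides, was at 246 and 243 FPKM. In the TCA cycle 23 of 26 were expressed, led by MDH2 at 326 and 336 FPKM and CS, citrate synthase, at 331 and 328 FPKM. PCK1 and ME3 were at 0 and pyruvate carboxylase, PC, was at 0.0682 and 0.08798 FPKM. IDH2, the mitochondrial NADP enzyme, at 82.8 and 87.9 FPKM exceeded the cytosolic IDH1 at 14.2 and 13.8 FPKM.

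Amino acid and one-carbon genes were expressed in 24 of 31 cases. The mitochondrial SHMT2 was highest at 250.1 and 258 FPKM and GOT2 followed at 198 and 200.2 FPKM. SLC7A5 (LAT1) was at 160.1 and 173 FPKM and the glutamine carrier SLC1A5 (ASCT2) at 94.9 and 94.7 FPKM. PHGDH, the first enzyme of serine synthesis, had no read in either library, although the next enzymes PSAT1 and PSPH were at 55.7 and 50.8 and 18.3 and 18.9 FPKM. GLUL, glutamine synthetase, GLS2 and ARG1 also had none, and ASS1, needed to make arginine, was at 0.0535 and 0.0129 FPKM.

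Lipid genes were expressed in 32 of 35 cases, with ACLY at 120.1 and 129.9 FPKM, FASN at 91.96 and 105 FPKM and HADHA of beta-oxidation at 89.4 and 85.3 FPKM. Of 34 antioxidant genes 29 were expressed. After GSTP1 the highest were the peroxiredoxins PRDX1 at 527 and 477 FPKM and PRDX2 at 450.3 and 434 FPKM. GPX4, which protects lipids from peroxidation, was at 217 and 215 FPKM, while GPX2, GPX3 and GPX8 were at 0. Mitochondrial SOD2 was low by FPKM, at 3.97 and 4.32 and rank 7266. By reads it ranked 3347, with 2423 and 2728 reads and a fitted length of 17592 bases, so the scale matters here too. The cystine carrier SLC7A11, which feeds glutathione synthesis, was below the threshold at 0.703 and 0.735 FPKM.

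Families of related genes ranged from those with 1 member in use to those with all members expressed. Among 118 families with at least 2 listed members, a single member held 80% or more of the summed FPKM in both libraries in 48. In 48 families every listed member was expressed, in 25 exactly 1 was, and in 3 none was. The leading member was the same in both libraries in 116 families, the exceptions being the creatine kinases, all under 1 FPKM, and the B cyclins CCNB2 at 108 and 106 FPKM and CCNB1 at 108 and 98.1 FPKM. In 21 families the member with most reads was not the member with the highest FPKM, so the choice of scale matters there.

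**Figure D4:**
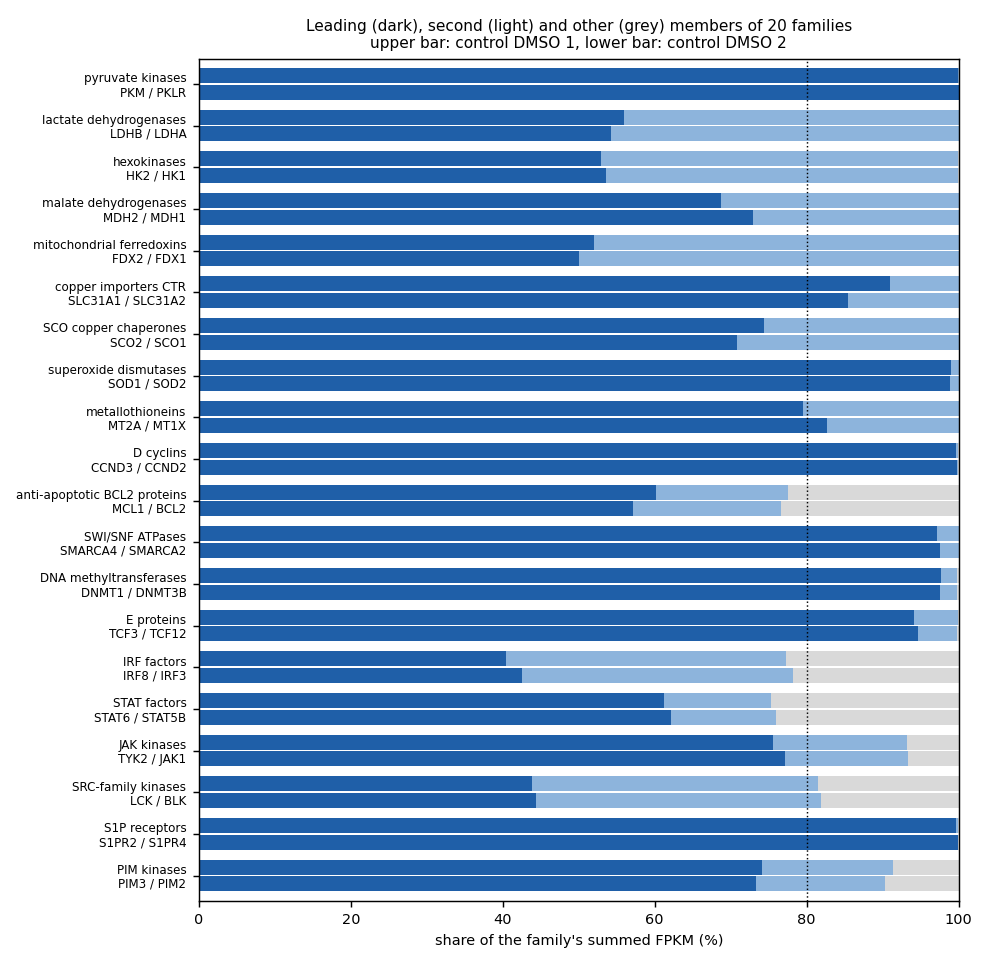
Share of a family's summed FPKM (x axis, percent) held by its leading member (dark), the second (light) and all others (grey), for 20 families chosen to span metabolism, copper, cell cycle and signalling; the upper bar is control DMSO 1, the lower bar control DMSO 2, the named genes are the leading and the second member and the dotted line is 80%. CCND3, S1PR2, SOD1, PKM and TCF3 pass the line in both libraries, and MT2A passes it in library 2 with 82.6% and not in library 1 with 79.6%.

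Chromatin regulators gave clear examples. SMARCA4 (BRG1), an ATPase of the SWI/SNF remodeller, was at 194 and 217 FPKM and its alternative SMARCA2 (BRM) at 5.77 and 5.41 FPKM. DNMT1, which copies DNA methylation, was at 163 and 175 FPKM against 3.59 and 4.08 FPKM for DNMT3B. TET3 was the TET dioxygenase expressed, at 4.27 and 4.73 FPKM, with TET2 at 0 and TET1 at 0.135 and 0.141 FPKM. Among class I histone deacetylases HDAC1 led at 156 and 150.5 FPKM. EP300 exceeded CREBBP in both libraries.

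Signalling families were led by members typical of lymphoid cells as well as others. LCK at 68.4 and 70.8 FPKM exceeded BLK at 58.6 and 59.6 FPKM among SRC-family kinases, although BLK had more reads, and LYN was at 10.9 and 10.8 FPKM. TYK2 led the JAK kinases at 39.7 and 43.8 FPKM, with JAK1 at 9.29 and 9.16 FPKM, and STAT6, which interleukin 4 activates, led the STAT factors at 101 and 106 FPKM. PIM3 at 78.2 and 76.9 FPKM exceeded PIM2. S1PR2 held 99.6% and 99.9% of the level of the S1P receptors. IRF8, a germinal-centre factor, at 53.8 and 56.3 FPKM and IRF3 at 48.97 and 47.2 FPKM led the IRF family.

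In the survival family MCL1 at 70.5 and 67.4 FPKM was above BCL2 at 20.3 and 22.98 FPKM. Among effectors BAX at 70.8 and 60.3 FPKM was above BAK1 at 31.8 and 29.4 FPKM. By reads BAK1 led the effectors, with BAX at 46.6% and 44.5% of their reads. Of mitochondrial carriers SLC25A5 at 594 and 563 FPKM dominated over SLC25A4 at 25.98 and 26.6 FPKM. SLC25A6 was listed at 0, but a row named SLC25A6-2 stood at 4.29 and 4.69 FPKM, so that member is uncertain. Among Forkhead P factors FOXP4 at 12.4 and 13.6 FPKM exceeded FOXP1. HMOX2, PCK2 and ME2 were in each case the expressed member beside a silent paralogue.

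Several classes of tissue-restricted genes were nearly silent. Of 47 listed olfactory receptors 1 was expressed, OR13A1 at 7.28 and 6.83 FPKM. Of 26 keratins it was KRT10 alone at 8.31 and 9.55 FPKM, and of 10 keratin-associated proteins none. Of 44 protocadherins 1 was expressed and of 36 collagens 2, the higher being COL9A2 at 14.96 and 15.6 FPKM. Other such classes were less so, with 2 of 15 claudins, 6 of 46 potassium channels and 7 of 36 cytochromes P450 expressed. HOX genes were expressed in 9 of 25 cases, led by HOXC4 at 12.7 and 13.99 FPKM. By contrast 38 of 38 proteasome subunits and 77 of 78 mitochondrial ribosomal proteins were expressed. Of 453 ZNF genes 258 were, or 57.0%, close to the 59.0% of all listed genes. Histone genes are not a tissue-restricted class, yet of 61 listed 9 were expressed, or 14.8%. H2AZ1, a replication-independent variant, led at 791 and 751 FPKM. Whether the library preparation captured the transcripts of the other histone genes was not tested, so this count is not read as silence.

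No read was counted in either library for 2079 listed genes, or 13.3%. The list itself limits that count, because no listed gene was at 0 in all 8 libraries, so each silent gene had a read in at least 1 of the 6 others. For 1032 of them this was a single read in all, and for 1346 at most 3 reads. Reads in all 6 others were found for 46, and 1 gene, TRIM31, reached 1 FPKM in another library, with a highest value of 3.0 FPKM. TRIM31 encodes a ubiquitin ligase. A further 1163 genes were at 0 in 1 library, and none of these had more than 20 reads in the other. A value of 0 means that no read was assigned to that row, as with SLC25A6 beside SLC25A6-2, and 1276 genes above 0 had at most 3 reads in each library.

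Few genes stood far apart between the libraries, and several of those that did have near-identical copies. Among genes of mean 1 FPKM or more the ratio was largest for ASMTL-2 at 0.114 and 9.78 FPKM, SMIM11A at 5.96 and 0.0995 FPKM, SULT1A3 at 4.76 and 0.144 FPKM, SULT1A4 at 0.255 and 5.24 FPKM and PLCXD1-2 at 5.704 and 0.468 FPKM. PPP2R3B-2 was at 0.357 and 2.599 FPKM, SLX1B at 1.33 and 5.33 FPKM, RASA4 at 6.44 and 2.08 FPKM, SULT1A2 at 0.919 and 2.75 FPKM and MSMP at 1.74 and 0.6998 FPKM. SULT1A3 and SULT1A4 encode the same sulfotransferase, and they had 224 and 12 reads in library 1 and 7 and 255 in library 2. Their sum was 236 and 262 reads, nearly equal. For other pairs the sum was not kept. RASA4 and RASA4B together had 1664 and 901 reads, and SLX1A and SLX1B 206 and 380. Whether assignment of reads between copies moved these levels was not tested. Only 3 genes that were expressed in both libraries lay 2 times or more apart.

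**Figure D5:**
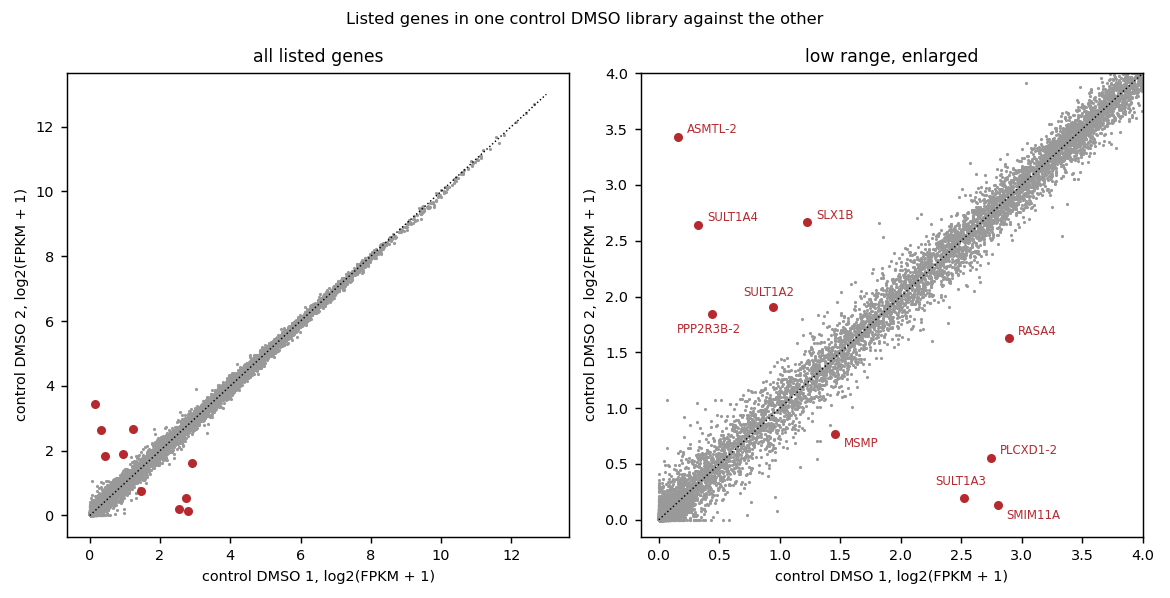
Each listed gene as log2(FPKM + 1) in control DMSO 1 (x axis) and control DMSO 2 (y axis), over the whole range (left) and enlarged below 4 (right); the dotted line marks equal values and red points are the 10 genes of mean 1 FPKM or more with the largest ratio. The red points include SULT1A3 and SULT1A4 on opposite sides of the line.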

How the data were processed

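RNA of 8 SUDHL-4 libraries was extracted with TRIzol and made into libraries with a VAHTS V6 kit, per the labels' protocols. The submitters' processing notes name HISAT2, HTSeq, R 3.2.0 and the build hg19, with no roles. The authors deposited values per gene that behave as FPKM, although the files' headers name no unit. Strandedness is not given in the sources used here.

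Whole reads were recovered from the steps of the deposited FPKM values, within 0.02 of a read. On simulated libraries of 15111 genes this returned the totals exactly and all reads in 99.41% of genes. The members and gene lists were chosen with earlier results of these data known. The text names the 20 most abundant genes, the 4 highest members of each list and those at 0, every copper and lipoylation gene, the 2 leading members of families, and the 10 genes furthest apart. It always names BCL6, CD79A, CD79B, PAX5, FDX1, MYC, BCL2, PRDM1 and IRF4. Other genes, and some members left out for length, were chosen after their values were seen. Some genes that the rule covers are not reported here. Promoters came from RefSeq (GRCh38.p14), matched by symbol for 12367 of 15597 genes, or 79.3%. With 1 group there was no test. Thresholds, pseudocounts, units and left-out libraries were varied. Python 3.11.15, numpy 2.4.6 and pandas 2.3.3 were used.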

Additional observations from a re-analysis of the deposited data

How the results depend on the processing

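No paired analysis was possible because only 1 group was described, with no contrast. With at most 0.1 FPKM in place of 0, the number of genes called silent in both libraries rose from 2079 to 4347. The 100 most abundant genes held 19.31% of the reads against 33.01% of the summed FPKM. The germinal-centre minus activated panel difference of 2.97 became 4.69 with a pseudocount of 0.1. It was 1.51 over members at 1 FPKM or more in either library, and 2.80 for the longer lists. Those longer lists were chosen with earlier results of these data known, and the germinal-centre one leaves out ASB13 and MAML3. Families led at least 2 times over the second member numbered 80, against 48 by the 80% share. The SD of log2 ratios between libraries, 0.154, was 0.1065 at 10 FPKM and 0.1241 with no filter on log2(FPKM + 1). Expressed genes numbered 9804 at 0.5 FPKM, 8380 at 2 FPKM and 9988 at 1 TPM, and 9309 or 9287 with 1 library alone. The 2 libraries limit precision to their own spread, and values near 3 reads are counting noise.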

Other observations

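Of the rows whose gene name carries a numbered suffix, CD99-2 stood at 9.07 and 11.5 FPKM and P2RY8-2 at 0.818 and 1.23 FPKM, while CD99 and P2RY8 were not among the listed genes. SMIM11A and SMIM11B together had 182 reads in library 1 and 3 in library 2.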
